A study of Mus musculus with 9 samples.

Results

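Snhg11 and Miat are 2 long noncoding RNA genes known for their expression in neurons and neuroendocrine cells, and their levels were followed in pancreatic islets of virgin and pregnant mice. They were taken by gene name from a table of transcript FPKM (fragments per kilobase of transcript, scaled to sequencing depth), in which they make up 2 of 10706 names and 10 of 25895 transcript lines. Snhg11 has 1 line and Miat has 9, and the lines of a name were summed. The islets came from female mice that were virgin (5 libraries, numbered 1 to 5) or pregnant at GD14.5, a gestation day in the labels' notation (4 libraries, numbered 1 to 4), and bulk poly(A)-enriched RNA was sequenced. The labels name no strain, age, transgene or drug. They also leave unstated how many animals stand behind a library, so the p-values cover only library-to-library spread, which may be technical. Of 36 marker genes of islet endocrine, neural, exocrine, endothelial, immune and stromal cells, 3 had a line in the table and 0 of the 8 endocrine ones did, so the labelled tissue was not checked against its hormones. The stromal marker Col3a1 was listed at 0 except in virgin 2 (16.23 FPKM), GD14.5 replicate 2 (8.46 FPKM) and GD14.5 replicate 4 (8.38 FPKM), Col1a1 was at 0 throughout, and the duct marker Sox9 reached 0.01 FPKM; their part in the results was not tested.

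A small nucleolar RNA host gene carries snoRNAs, short RNAs that guide chemical changes of other RNAs, in its introns, and they are released when the host transcript is spliced. Snhg11 is such a host, and its spliced transcript is abundant in brain. Miat, also called Gomafu or Rncr2, is a spliced, polyadenylated RNA that stays in the nucleus of neurons in fine spots, and its repeated ACTAAC letters resemble the intron branch point bound by splicing factor SF1.

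RefSeq places Snhg11 at chr2:158375713-158386474 on the plus strand and Miat at chr5:112213228-112228948 on the minus strand (GRCm38.p6), and classes both as long noncoding RNA genes. GENCODE M21, an independent annotation of GRCm38, has 5 Snhg11 and 6 Miat transcripts. It classes the Snhg11 gene as coding, from a single model of 5864 bases, and lists its other 4 models as retained introns or as targets of nonsense-mediated decay. The 2 snoRNA genes inside Snhg11, Gm25187 (chr2:158378222-158378354) and Gm25129 (chr2:158379534-158379666), lie in the third intron of that model, and neither has a line in the table. Gm25187 also falls within an exon of one of the retained-intron models. They are shown because they are what makes Snhg11 a host gene. Both have 133 bases, 93 of which were identical in a global alignment (69.9%), and both annotated sequences end in ACA, in capitals, the closing box of the H/ACA class of snoRNAs.
Gm25187: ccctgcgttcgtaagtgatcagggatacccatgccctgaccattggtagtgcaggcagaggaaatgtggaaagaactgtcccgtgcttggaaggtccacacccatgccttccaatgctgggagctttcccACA
Gm25129: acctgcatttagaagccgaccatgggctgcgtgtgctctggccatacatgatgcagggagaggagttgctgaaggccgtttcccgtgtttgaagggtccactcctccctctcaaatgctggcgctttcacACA

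In Miat the repeat was measured in the annotated transcripts, since it is the feature by which the RNA is known. The letters ACTAAC occur 11 times in the Miat model of 8758 bases and 11 times in that of 9163 bases, and 0 times in the 4 shorter Miat models, which lack the long last exon. The 5864-base Snhg11 model holds 1 match. The densest window of 240 bases in the 8758-base model held 4 matches, on the sense strand and without overlaps. As many were found in 6 of 29592 noncoding transcripts of at least 240 bases (0.0203%), both long Miat models among them. A longer transcript offers more windows, and this share was not adjusted for length. The stretch lies in exon 7 of 7, at chr5:112217313-112217455 on the minus strand, and is shown with ACTAAC in capitals.
Miat repeat: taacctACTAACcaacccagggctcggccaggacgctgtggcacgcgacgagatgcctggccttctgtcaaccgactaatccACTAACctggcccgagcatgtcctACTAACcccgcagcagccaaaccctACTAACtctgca

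In the 300 bases around each RefSeq start (250 before, 50 after), 6 strings were searched on both strands. The windows came from the RefSeq promoter table (GRCm38.p6), in which both genes were matched. GENCODE M21 has earlier starts, so these windows are partly or wholly exon in its models. The whole Miat window lies in the first exon of the 9163-base model. The Snhg11 window includes the start of the 5864-base model, chr2:158375638, which is before the RefSeq start. The parts TTCAGCACC and GGACAG of the element bound by the neuronal repressor REST had no match in either window, nor did TGACGTCA (cAMP response element), CAGATG (E box) or TTCNNNGAA (STAT5 site). They occur in 0.371%, 22.2%, 1.79%, 17.2% and 8.3% of 32851 promoters of that length. The E box CAGCTG, found in 16.3% of them, occurred once, at position -61 from the RefSeq start of Snhg11. That position lies inside the first exon of the 5864-base Snhg11 model. Over the full windows, G and C made up 60.0% for Snhg11 and 64.3% for Miat, against a median of 52.7%. The 175 bases of the Snhg11 window before its first annotated exon held 54.9%.

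**Figure D1:**
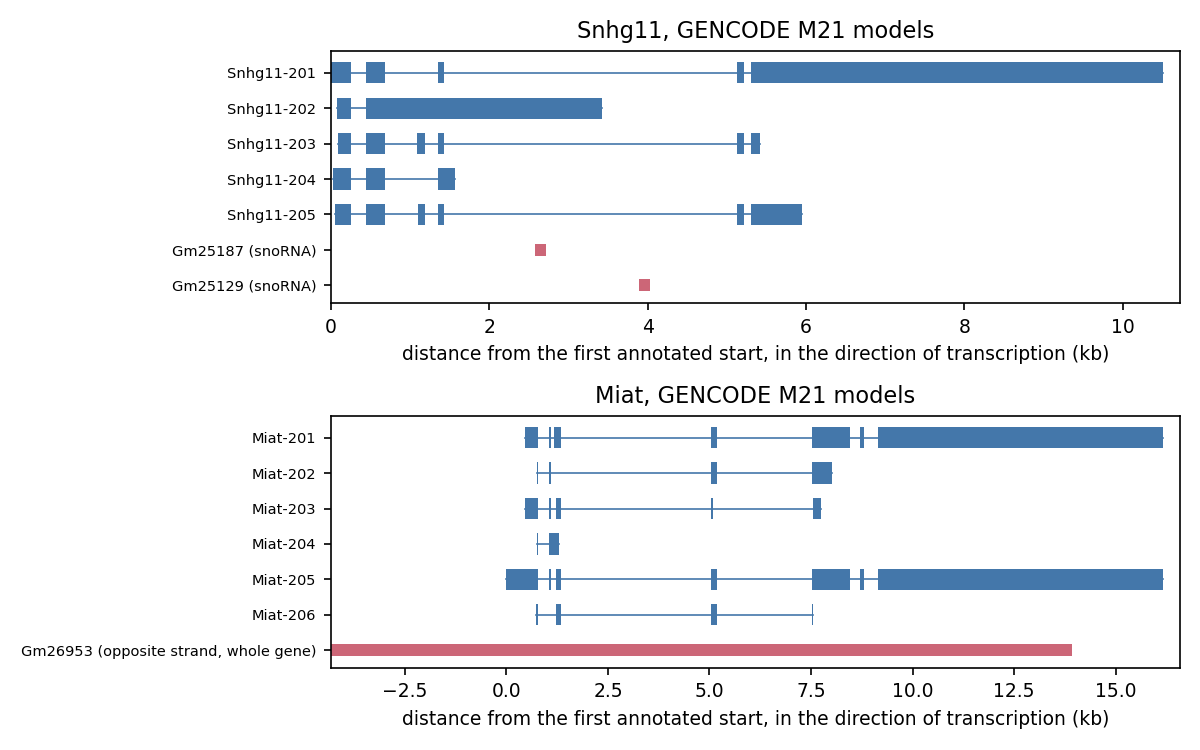
GENCODE M21 transcript models of Snhg11 (top) and Miat (bottom), plotted by distance in kb from the first annotated start; blocks are exons and thin lines introns. The red marks are the 2 snoRNA genes inside Snhg11 and the whole span of Gm26953, a noncoding gene on the opposite strand, which overlaps all 6 Miat models.

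Snhg11 was readily detected in every library. It was at 1.96, 2.64, 2.11, 19.73 and 14.03 FPKM in virgin libraries 1 to 5, and at 1.94, 5.17, 3.67 and 14.45 FPKM in GD14.5 libraries 1 to 4. Virgin 4, virgin 5 and GD14.5 replicate 4 were high, the other 6 libraries lay between 1.94 and 5.17 FPKM, and the groups overlapped over nearly their whole ranges. The virgin libraries averaged 8.09 ± 8.27 FPKM (SD, n = 5) and the GD14.5 libraries 6.31 ± 5.59 FPKM (SD, n = 4). By its mean over all libraries, 7.3 FPKM, Snhg11 took place 170 of the 2377 names whose mean was at least 0.5 FPKM.

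Snhg11 differed between GD14.5 and virgin islets by less than the spread of the libraries. Its log2 fold change on the log2(FPKM + 0.5) scale, which understates changes of low values, was -0.07 ± 0.65 (SE; 95% interval -1.42 to 1.29; adjusted p = 0.957 by limma over 2377 names). The same fit called 4 names higher, 0.168% of those tested, and 0 lower. Without adjustment, 26 names were higher and 34 lower at a p under 0.05. A two-sided exact permutation test of Snhg11 over all 126 splits gave p = 0.952, where 0.00794 is the smallest possible. Fitted among the 2548 single lines with the same minimum, where 0.118% were called higher, the Snhg11 line had the same fold change with an adjusted p of 0.967 by limma. The interval is wide enough to hold a fall or a rise of over 2-fold. In bulk tissue, fewer cells of a type and less RNA per cell cannot be told apart.

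**Figure D2:**
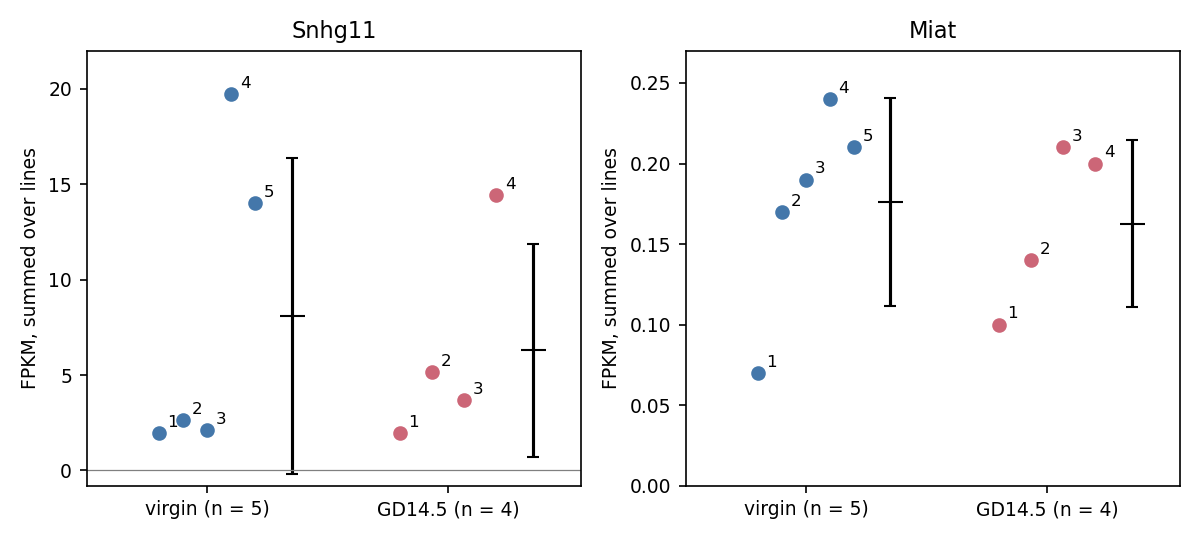
FPKM of Snhg11 (left) and of Miat summed over its lines (right) in each library, with replicate numbers beside the points; black bars are group means with 1 SD (virgin n = 5, GD14.5 n = 4). Snhg11 is above 14 FPKM in virgin 4, virgin 5 and GD14.5 4 and at 1.94 to 5.17 FPKM elsewhere, while Miat stays between 0.07 and 0.24 FPKM.

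The libraries with high Snhg11 were also those with high levels over the names listed, which are only part of the RNA of a library. The summed FPKM of the table was 14636 to 20531 in those 3 libraries and 5415 to 10689 in the other 6, and the median of the names tested ranged from 0.6 to 2.54 FPKM, 4.23 times. Snhg11 itself ranged 10.2 times. Against the median of its own library, on the log2(FPKM + 0.5) scale, it stood 2.91 above in virgin 4, 2.26 in virgin 5 and 2.78 in GD14.5 replicate 4. In virgin libraries 1 to 3 it stood 1.16, 0.86 and 0.91 above, and in GD14.5 libraries 1 to 3 it stood 0.92, 2.05 and 1.61 above. On this scale, where the pseudocount compresses the low medians, the 3 libraries stayed above the other 6, and GD14.5 replicate 2 lay closest to them. The part that depth, handling or cell makeup has in it was not tested.

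The direction of the Snhg11 difference depended on how libraries were compared. With equal library medians, which move the median fold change of all names from -0.30 to -0.02, it was 0.22 ± 0.50 (SE; adjusted p = 0.947 by limma), in a fit that called 0.926% of names higher and 0.0421% lower. With the replicate number as a block it was 0.27 ± 0.25 (SE; adjusted p = 0.717 by limma), in a fit that called 0.968% of names higher and 0.126% lower. Virgin 5 has no same-numbered GD14.5 library, so it adds nothing to this estimate, which equals the one found without virgin 5. The same-numbered differences were -0.01, 0.85, 0.68 and -0.44 for numbers 1 to 4, so the pairs were split in sign. Within the libraries numbered 1 to 3 the mean difference was 0.51 (3 against 3), and within those numbered 4 and 5 it was -0.20 (2 virgin against 1 GD14.5).

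**Figure D3:**
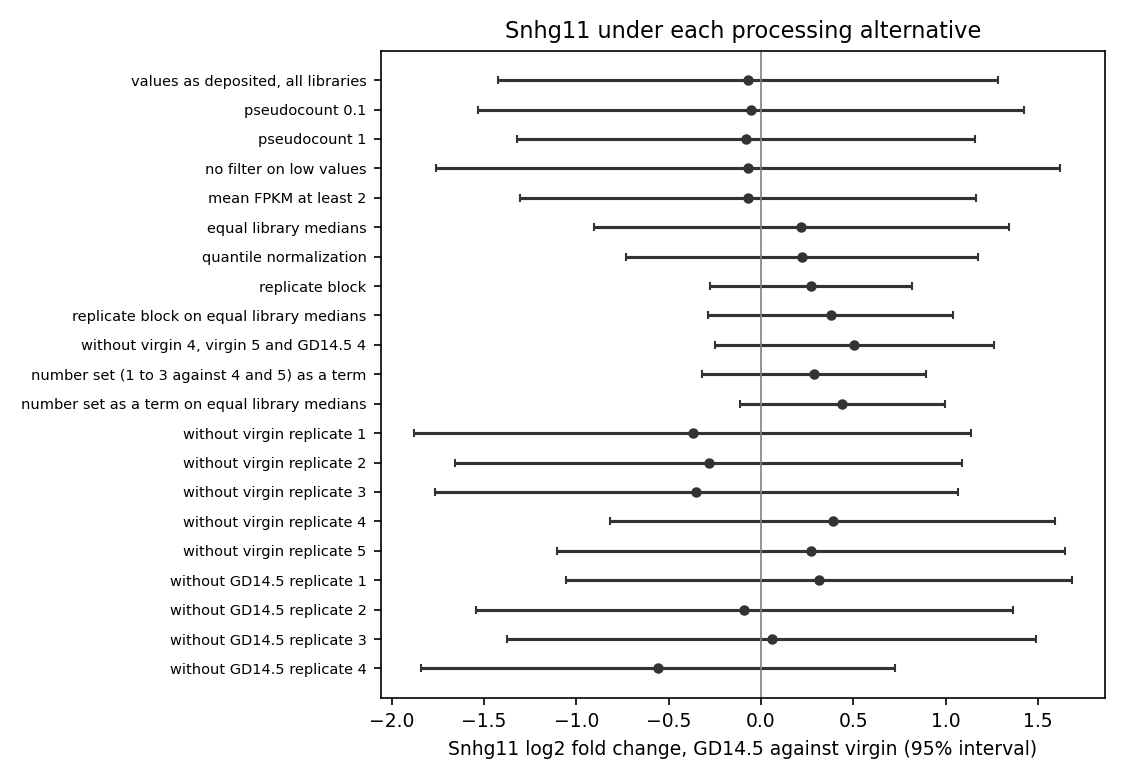
Snhg11 log2 fold change of GD14.5 against virgin (x axis, points) with its 95% interval (bars) under each processing alternative (y axis). Every interval includes 0, and the points lie between -0.56 and 0.51.

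A rank within a library does not depend on how that library was scaled. Snhg11 lay above 76.4% to 96.1% of the names tested in virgin libraries and above 79.6% to 95.2% of them at GD14.5. By rank the 3 libraries did not stand apart: GD14.5 replicate 2, at 92.9%, lay above virgin 5, at 92.6%, and below virgin 4 and GD14.5 replicate 4. The group means were 86.0% ± 8.46 (SD, n = 5) and 89.3% ± 6.90 (SD, n = 4), and the difference of 3.29 percentage points was within the spread (exact permutation p = 0.532, adjusted over the 2 genes 0.532).

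Snhg11 varied more between libraries of a group than most names of similar or higher level. After subtraction of the library medians, its within-group SD was 0.86 on the log2 scale, against a median of 0.37 over the 271 names with a mean of at least 5 FPKM, which put it at place 20 of those names. The 5 names whose pattern was most like it, by Pearson's r of the same residuals over 9 libraries among 270 candidates, were Papss2 (r = 0.97), B830017H08Rik (0.96), Hnrnpul2 (0.94), Rufy3 (0.94) and Inafm2 (0.94). The median r over all candidates, measured in the same libraries, was 0.59. With virgin 4, virgin 5 and GD14.5 replicate 4 left out of the correlation, the r of these 5 names was 0.65 to 0.80 over 6 libraries. The group means removed were still those of all 9 libraries, so the libraries left out still shift these residuals. No median r over the candidates was taken for the 6 libraries. Papss2, which encodes an enzyme that makes the sulfate donor of the cell, ranged from 7.17 to 88.88 FPKM. B830017H08Rik, a noncoding name, ranged from 6.41 to 53.22 FPKM. Hnrnpul2 encodes an RNA-binding protein and Rufy3 a neuronal adaptor protein of organelle transport, and they ranged from 2.75 to 16.31 and from 3.42 to 19.32 FPKM. None of the 5 passed limma's threshold for GD14.5 (adjusted p from 0.817 to 0.940). Which transcript of a coding gene such a line holds is unknown.

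The neighbours of Snhg11 on chromosome 2 ranged less. Snhg17, a further snoRNA host that ends 14.2 kb before Snhg11 (chr2:158353700-158361522), was at 1.54 to 5.66 FPKM over the 9 libraries, a range of 3.68 times. It averaged 3.24 ± 1.74 FPKM (SD, n = 5) in virgin and 2.69 ± 1.04 FPKM (SD, n = 4) in GD14.5 libraries. Ralgapb, which encodes a subunit of a GTPase-activating complex and starts 23.4 kb after Snhg11, had lines summing to 1.36 to 5.78 FPKM. Neither passed for GD14.5 (adjusted p = 0.876 and 0.817 by limma). The next names of the table on each side, Gm34571 and Gm14204, lay 117 and 209 kb away and reached at most 0.02 and 0.01 FPKM.

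Among snoRNA host genes, 20 of 21 listed had a line and all 20 were tested. Limma called 0 higher and 0 lower, with 1 at an unadjusted p under 0.05 (Snhg9), and their median log2 fold change was -0.11, against -0.30 over all names tested. The 5 most abundant were Snhg3, Gas5, Snhg20, Snhg8 and Zfas1. Gas5, a host gene whose RNA accumulates in growth-arrested cells, averaged 50.7 ± 34.7 FPKM (SD, n = 5) in virgin and 53.0 ± 29.0 FPKM (SD, n = 4) in GD14.5 libraries. Its highest values were in virgin 4 (103.94 FPKM) and GD14.5 replicate 4 (96.05 FPKM), and its range of 6.28 times was below that of Snhg11. Snhg20 ranged 6.29 times, Snhg8 3.73 times and Zfas1, a host gene next to Znfx1, 2.32 times. Snhg3 went another way, at 37.27, 89.92, 80.1, 56.67 and 47.68 FPKM in virgin libraries 1 to 5 and at 76.5, 84.42, 72.9 and 43.79 FPKM in GD14.5 libraries 1 to 4. Virgin 4, virgin 5 and GD14.5 replicate 4, the libraries with the most Snhg11, thus had less Snhg3 than every other library except virgin 1. Of the 20 hosts, Snhg9 was the only one listed at 0 in any library (GD14.5 libraries 1 and 4).

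**Figure D4:**
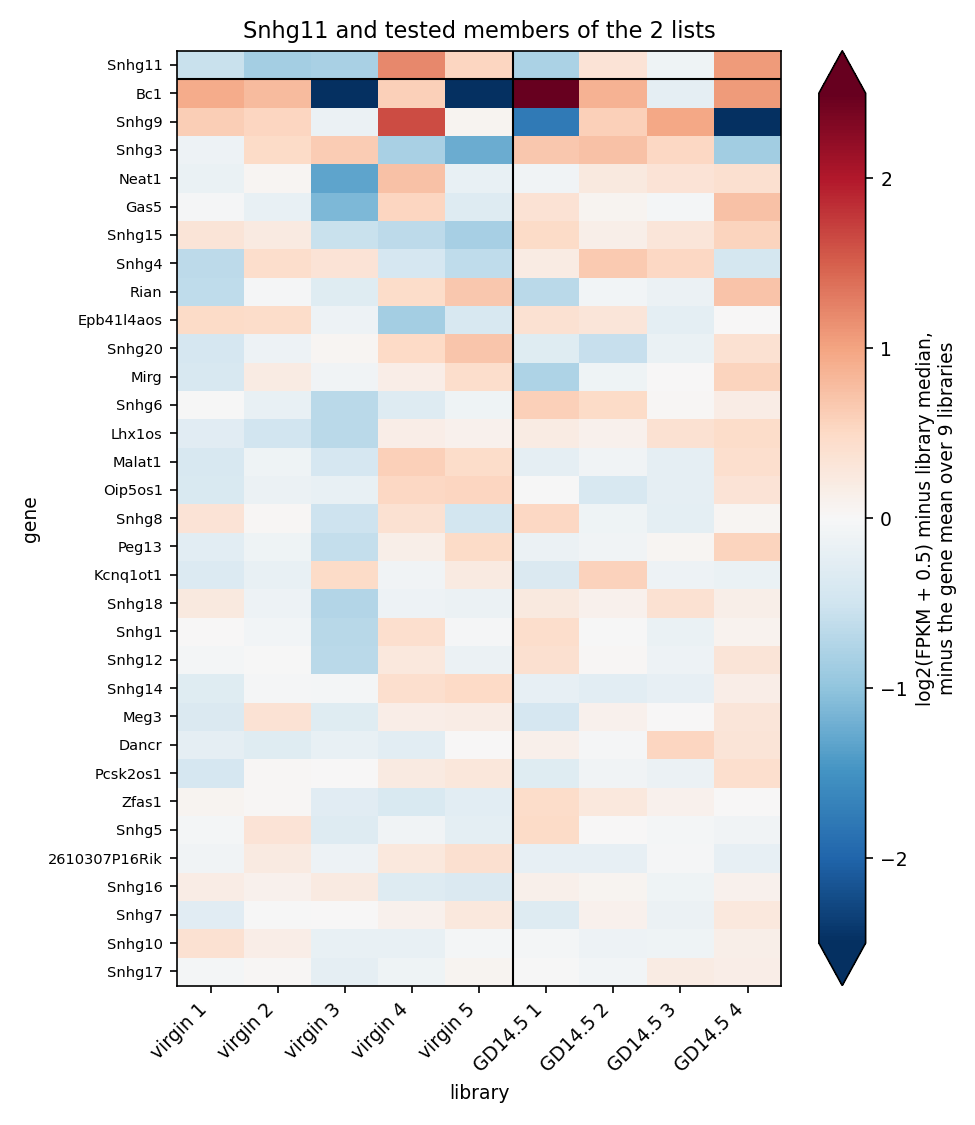
Level of Snhg11 (top row) and of each tested member of the snoRNA host and neural lncRNA lists in each library, as log2(FPKM + 0.5) minus the library median and minus the gene's mean over the 9 libraries; red is higher, blue is lower, and colours saturate at the ends of the scale. Snhg11 is red in virgin 4, virgin 5 and GD14.5 4, where Snhg3 is blue.

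Miat was near the lower limit of the table in every library. Its 9 lines summed to 0.07, 0.17, 0.19, 0.24 and 0.21 FPKM in virgin libraries 1 to 5, and to 0.1, 0.14, 0.21 and 0.2 FPKM in GD14.5 libraries 1 to 4. The groups overlapped, and virgin 1 and GD14.5 replicate 1 were the lowest of each. The means were 0.176 ± 0.0647 FPKM (SD, n = 5) in virgin and 0.163 ± 0.0519 FPKM (SD, n = 4) in GD14.5 libraries. These values are below the minimum mean of 0.5 FPKM for testing, and Miat took place 3798 of the 10284 names above 0 in any library. Of the pair, Snhg11 was thus among the more abundant names listed. Miat was below the minimum but ahead of most names above 0, many of which were lower still. These places hold only among the names listed, which lack most of the marker genes looked for.

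Miat had no test in the fit described above, and its difference was -0.03 on the log2(FPKM + 0.5) scale (exact permutation p = 0.770). With no filter on low values, where limma called 0.0292% of 10284 names higher and 0 lower (133 and 170 at an unadjusted p under 0.05), it had a log2 fold change of -0.03 ± 0.14 (SE; 95% interval -0.33 to 0.27; adjusted p = 0.945). The pseudocount is larger than every Miat value, so this interval does not bound the change of Miat itself. Miat lay above at most 2.90% of the names tested in virgin libraries and at most 2.52% at GD14.5 (difference -0.36 percentage points, exact permutation p = 0.365, adjusted over the 2 genes 0.532). Miat itself is not among those names, since its mean is below 0.5 FPKM. Its low place was thus set by the filter, and the test has little room to show a fall.

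The 9 Miat lines have no transcript identifier, are numbered here by their order in the table, and could not be tied to the annotated models. Lines 3, 5, 6 and 8 were listed at 0 in every library, and 0 of the 9 reached the minimum mean. Line 9 was the highest on average, at 0, 0.07, 0.1, 0.14 and 0.1 FPKM in virgin libraries 1 to 5 and 0.06, 0.1, 0.14 and 0.12 FPKM at GD14.5. It made up 60.0% to 71.4% of the Miat sum at GD14.5 and 0% to 58.3% in virgin islets. A step of 0.01 FPKM, the rounding of the table, is 4.17% of the largest Miat sum, more than the gap between the highest virgin and the lowest GD14.5 share, so the shares cannot be called separate. No test was run on them, because no line reached the minimum. For FPKM levels, which are not shares, 0.589% of the 2377 names had groups that did not overlap.

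Line 7 had the same values in same-numbered libraries of the groups. It was at 0, 0.01, 0.02, 0.07 and 0.07 FPKM in virgin libraries 1 to 5 and at 0, 0.01, 0.02 and 0.07 FPKM in GD14.5 libraries 1 to 4, high where Snhg11 was high. Line 1 was lowest in 2 of those libraries, at 0.03, 0.08, 0.06, 0.02 and 0.04 FPKM in virgin libraries and 0.04, 0.03, 0.05 and 0.01 FPKM at GD14.5. Line 4 was listed above 0 in virgin 1 only (0.04 FPKM), and line 2 reached 0.01 FPKM in virgin libraries 2 to 4 and was listed at 0 at GD14.5.

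**Figure D5:**
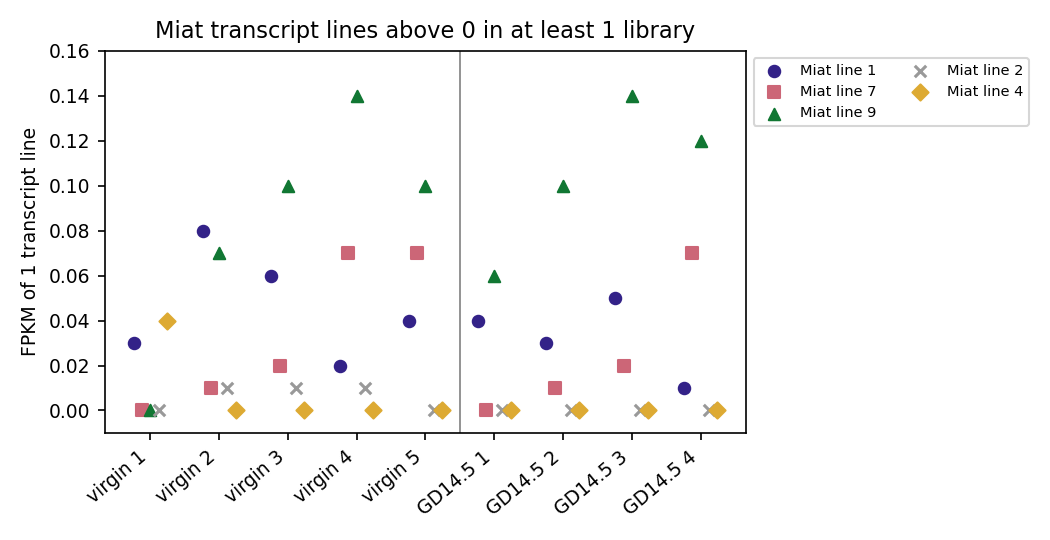
FPKM of the 5 Miat transcript lines above 0 in at least 1 library (y axis) in each of the 9 libraries (x axis), virgin left and GD14.5 right of the grey line. No line exceeds 0.14 FPKM, and line 7 (squares) reaches 0.07 FPKM in virgin 4, virgin 5 and GD14.5 4.

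The span of Gm26953, the gene on the opposite strand, overlaps Miat exons, but the exons of Gm26953 were not compared with them. Where both genes share exon bases, their reads may be mixed, since no source used here states whether counting used strand. The nearest names of the table beyond Miat were Gm52821 at 9.23 kb, at most 0.03 FPKM, and Gm46941 at 41.8 kb, at most 0.68 FPKM. On the other side, Gm36794 at 267 kb reached 0.05 FPKM and Gm36535 at 406 kb was listed at 0 throughout. By the same measure of likeness as for Snhg11, the names closest to Miat were Gm24105 (r = 0.94), Klhl7 (0.89), Vaultrc5 (0.86), Snhg3 (0.85) and Ivd (0.83), against a median of -0.69 over 271 candidates. With virgin 4, virgin 5 and GD14.5 replicate 4 left out of the correlation, r was 0.67 for Gm24105 and -0.20 to 0.32 for the other 4. Here too the group means removed were those of all libraries. Ivd, which encodes an enzyme of leucine breakdown, was itself called higher at GD14.5 (0.21 ± 0.31 FPKM in the 5 virgin libraries, 12.6 ± 3.68 FPKM in the 4 GD14.5 libraries; log2 fold change 4.26 ± 0.41, SE; adjusted p = 9.04e-07 by limma), and the group means are removed from this measure. Because log2(FPKM + 0.5) of Miat spans only -0.81 to -0.43 and the library medians subtracted from it span 0.14 to 1.60, the medians move these residuals more than Miat does.

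Per kilobase, Snhg11 exceeded Miat in all 9 libraries. The ratio of their FPKM was 28.0, 15.5, 11.1, 82.2 and 66.8 in virgin libraries 1 to 5 and 19.4, 36.9, 17.5 and 72.3 in GD14.5 libraries 1 to 4. It was highest in the 3 libraries with the most Snhg11. Miat ranged 3.43 times over the libraries and moved the ratio too: virgin 1, with the least Miat, had a higher ratio than virgin 2 and virgin 3 although its Snhg11 was lower. On the log2 scale the ratio averaged 4.93 ± 1.27 (SD, n = 5) in virgin and 4.95 ± 0.95 (SD, n = 4) in GD14.5 libraries. The difference of 0.01 did not exceed the spread (two-sided exact permutation p = 1). This ratio does not depend on library scaling, but it carries the rounding of Miat.

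Of 26 listed neural, endocrine and nuclear lncRNAs, 22 had a line and 13 were tested. Limma called 0 higher and 0 lower for GD14.5, with 1 at an unadjusted p under 0.05 (Bc1), and their median log2 fold change was -0.34, against -0.30 over all names. The most abundant were Malat1, Neat1, Meg3, Rian and Peg13. Meg3 and Rian, maternally expressed RNAs of the same imprinted cluster, averaged 122 ± 65.3 and 99.9 ± 74.1 FPKM in virgin islets (SD, n = 5) and ranged 4.04 and 6.98 times over the 9 libraries, against 10.2 times for Snhg11. Peg13, a paternally expressed imprinted RNA, ranged 4.77 times, Malat1 4.97 times and Neat1, the scaffold of paraspeckles, 8.10 times.

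Several brain lncRNAs were, like Miat, below the minimum, of which 3 are named here after their values were seen. Rmst, a regulator of neurogenesis, was at 0.02 to 0.14 FPKM. Sox2ot, which contains the gene of the stem cell factor Sox2, was at 0 to 0.01 FPKM, and Tunar, an RNA of neural differentiation, at 0 to 0.04 FPKM. Of the 21 listed splicing partners of Miat, REST targets and REST components, 3 had a line and 0 were tested. Rest, Celf3 and Srsf1 each had 1 line of unknown identity, so the values need not give the level of the gene. The line of Rest was at 0.15 to 0.66 FPKM. That of Celf3, a splicing factor gene, was listed at 0 in 6 of 9 libraries, and that of Srsf1 at 0 in all 9.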

How the data were processed

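Poly(A)-enriched RNA of mouse islets was analysed from a table of FPKM, which the authors deposited for 5 virgin and 4 GD14.5 libraries. Each line is a transcript and values have 2 decimals. Reads were processed on GRCm38.p6 (submitters' processing notes). No source used here names the aligner, quantifier, annotation or strand setting. Of 26375 lines, 480 with a numeric suffix that marks a further copy were left out. Of the 10706 names kept, 10705 matched a RefSeq symbol.

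FPKM of lines with 1 name were summed. Names with a mean of at least 0.5 FPKM entered a linear model of log2(FPKM + 0.5) on group, fitted by limma's lmFit and trended eBayes (limma 3.58.1, R 4.3.3; tested on simulated data), with Benjamini-Hochberg adjustment over all names and a threshold of 0.05. Ranks, the ratio and single levels had two-sided exact permutation tests. Alternatives were the pseudocount (0.1, 1), the filter (none, 2 FPKM), equal medians, quantile normalization, each library left out, the replicate block, and the fit without virgin 4, virgin 5 and GD14.5 replicate 4. A term for the number sets, and for Miat no filter together with the block or equal medians, were chosen after seeing the data.

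The depth is unknown. Low values of 18 to 37 short names per library were searched for steps of whole reads; the best step scored 0.698 to 0.859, where exact multiples give 1, and no reads were recovered. The replicate numbers are shared between groups. Residuals of same-numbered libraries, without subtraction of library medians, correlated at 0.49, 0.20, 0.28 and 0.59, all over 0.1. On the data alone, the replicate block treated the numbers as pairs, while the linear model on group did not. Differently numbered libraries also passed 0.1: GD14.5 replicate 4 with virgin 5 (0.49), GD14.5 replicate 2 with virgin 3 (0.25, above its same-numbered 0.20), GD14.5 replicate 1 with virgin 2 (0.23), and GD14.5 replicate 3 with virgin 2 (0.18) and virgin 1 (0.14).

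The members and lists were chosen with earlier results of these data known. Named are the members and their lines, the list members of highest mean (up to 5 per list), the 5 names most alike among those with a mean of at least 5 FPKM, and the 2 nearest names on each side.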

Additional observations from a re-analysis of the deposited data

Results flagged for a closer look

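Dixon's test for a single distant value was applied to 52 sets of libraries, each 1 gene or measure within a group. It marked 2 sets, and chance alone marks about 1 in 20, or 2.6 here. Malat1 in GD14.5 replicate 4 was at 11.70 on the log2(FPKM + 0.5) scale, against 10.30 to 10.52 in the other GD14.5 libraries. Klhl7, one of the names whose pattern was close to Miat's, was at -0.36 in GD14.5 replicate 4, against 3.11 to 3.68 in the other 3. Snhg11 and Miat had no such library in either group.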

How the results depend on the processing

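The Snhg11 difference, -0.07 on the log2 scale, was never past the threshold, and its sign changed in 11 of 20 alternatives. As a name and as a single line it was 0.22 and 0.21 with equal medians, 0.22 and 0.25 after quantile normalization, 0.27 and 0.27 with the replicate block, and 0.38 and 0.37 with the block on equal medians. Both were 0.51 without virgin 4, virgin 5 and GD14.5 replicate 4, 0.29 with the number sets as a term, and 0.44 and 0.43 with that term on equal medians. Leaving out 1 library gave -0.56 to 0.39 for both, above 0 without virgin 4, virgin 5, GD14.5 replicate 1 or GD14.5 replicate 3. Virgin 5 has no partner under the replicate block, so the 0.27 with the block is the same estimate as that without virgin 5. The cause of the sign changes was not tested. For Miat the value moved from -0.03 to 0.26 with equal medians over the names tested, but was 0.01 (adjusted p = 0.966 by limma) with equal medians in the fit without a filter, chosen after seeing the data. For its line 9 it moved from 0.06 to 0.21 with a pseudocount of 0.1, 0.35 with equal medians and 0.18 with the replicate block on equal medians; leaving out 1 library gave -0.09 to 0.02 and 0.01 to 0.10. The log2 ratio of Snhg11 to Miat was -0.042 with 0.5 added to both and -0.39 to 0.37 when 1 library was left out. With the block, which leaves out virgin 5, it was 0.30 (exact sign-flip p = 0.625, smallest possible 0.125). The percentile differences kept their sign in all 12 alternatives, from 0.88 to 9.45 points for Snhg11 and from -0.59 to -0.15 for Miat. The Miat percentiles lie near a floor that the filter on the compared names sets, so no change of Miat is read from them. Among names with a mean of at least 2 FPKM, Miat had an exact permutation p of 0.0476, or 0.0952 adjusted over the 2 genes, for a difference of -0.50 points; the adjusted p was applied to every percentile setting only after this value was seen. The number of names called higher and lower was 4 and 0, but 22 and 1 with equal medians, 24 and 5 after quantile normalization, 23 and 3 with the replicate block, 15 and 0 with the block on equal medians, 13 and 1 without the 3 libraries, 21 and 0 with the number sets as a term, and 34 and 10 with that term on equal medians; among lines it was 3 and 0, against 16 to 36 higher and 0 to 10 lower in those settings. The number sets were chosen after seeing the data. The replicate block changed no call of either gene. Quantile normalization and the filter of 2 FPKM gave no value for Miat, and tests of line shares were not run, since Snhg11 has 1 line and no Miat line reached the minimum. Depth is unknown, and the rounding to 0.01 FPKM limits every Miat value.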
